A study of Mus musculus with 9 samples.

Results

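Messenger RNA levels of 38 genes of the cell cycle and of DNA replication were examined in mouse cornea, lens and tendon. The genes were taken from a named list, and each was represented by the probe set, among those annotated to it alone, with the highest mean over all arrays. Of the 38 genes, 35 had such a probe set, out of 8251 genes with one on the array and 12422 probe sets that were not controls. Ccnb1 and Bub1b had none, and the probe set of Tyms was shared with its pseudogene. Tests were limited to probe sets at or above the median of their array on 2 or more of the 9 arrays, which 29 of the 35 genes were. Cdc6, Mcm6, Pola1, Ccne1, Aurka and Bub1 were not and are described by their values.

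The study set the cornea of young and mature mice beside a second transparent tissue, the lens, and a second collagenous tissue, the tendon. Adult cornea from mice 7 weeks old gave 3 arrays, and cornea from postnatal day 10 (P10), before the eyelids open, gave 2. The lens and the flexor digitorum longus tendon, a tendon of the digits, came from mice of 7 weeks, with 2 arrays each and RNA extracted from pooled tissue. Corneas were cut away from the limbus, the rim where the epithelial stem cells lie, and were scraped, which left epithelium behind. Without unscraped cornea among the arrays, the share of epithelium that scraping removed is not known here. Arrays of 1 group held separate RNA preparations, so the p-values measure the spread between preparations. Strain, sex and genotype were not given in the sources used here. The cornea arrays had already served an earlier study, and a difference in array run cannot be told apart from tissue when cornea is set against lens or tendon.

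Cells copy their DNA by loading a ring-shaped helicase at origins, firing it with cyclin-dependent kinases and following it with polymerases, a sliding clamp and ligase. Many genes for these proteins are transcribed from late G1 onward by E2F factors, while genes for mitosis peak later through promoters with CCAAT boxes and the cell cycle genes homology region (CHR). In the eye, the corneal epithelium is renewed throughout life by dividing basal and limbal cells, the corneal stroma of the adult is almost quiescent, and the lens keeps dividing cells only in its epithelium while its fibres leave the cycle. Tendon cells of the adult divide little.

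Proximal promoters are printed for 7 members as examples, and their part in the differences between tissues was not tested. Mcm5 and Mcm6 stand for the helicase, Cdk1, Top2a, Mki67 and Cdc20 for mitosis and chromosome structure, and Rrm2 for a gene that departed from the rest. The sequences are the 200 bases before the annotated start, read 5′ to 3′ on the gene's own strand, from RefSeq on build GRCm38.p6. They lie at chr8:75109309-75109508 on the plus strand, chr1:128359706-128359905 on the minus strand, chr10:69352913-69353112 on the minus strand, chr11:99024190-99024389 on the minus strand, chr7:135716380-135716579 on the minus strand, chr4:118437344-118437543 on the minus strand and chr12:24708054-24708253 on the plus strand. Capitals mark matches, on either strand, to an E2F octamer (TTTCCCGC, TTTCGCGC, TTTGCCGC or TTTGGCGC), to the CHR (TTTGAA) or to CCAAT.
Mcm5: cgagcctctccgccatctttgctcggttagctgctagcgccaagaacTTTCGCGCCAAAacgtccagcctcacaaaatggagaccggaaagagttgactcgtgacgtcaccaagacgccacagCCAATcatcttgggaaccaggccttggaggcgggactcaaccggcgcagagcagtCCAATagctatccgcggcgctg
Mcm6: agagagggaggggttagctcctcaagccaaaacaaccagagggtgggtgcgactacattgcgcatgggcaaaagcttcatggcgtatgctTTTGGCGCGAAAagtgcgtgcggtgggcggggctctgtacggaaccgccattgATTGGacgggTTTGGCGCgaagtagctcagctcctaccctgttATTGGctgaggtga
Cdk1: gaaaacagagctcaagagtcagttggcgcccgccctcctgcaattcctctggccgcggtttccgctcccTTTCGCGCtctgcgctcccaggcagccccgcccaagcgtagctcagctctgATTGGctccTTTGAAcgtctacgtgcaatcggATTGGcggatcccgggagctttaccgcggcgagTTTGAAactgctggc
Top2a: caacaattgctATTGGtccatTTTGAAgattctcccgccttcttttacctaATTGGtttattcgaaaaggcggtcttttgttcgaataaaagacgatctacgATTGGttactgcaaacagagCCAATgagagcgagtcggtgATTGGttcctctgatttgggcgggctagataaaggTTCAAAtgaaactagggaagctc
Mki67: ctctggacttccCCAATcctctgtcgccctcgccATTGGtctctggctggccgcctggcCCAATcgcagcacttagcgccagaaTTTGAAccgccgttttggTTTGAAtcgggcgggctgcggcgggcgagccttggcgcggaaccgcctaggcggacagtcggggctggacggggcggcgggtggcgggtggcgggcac
Cdc20: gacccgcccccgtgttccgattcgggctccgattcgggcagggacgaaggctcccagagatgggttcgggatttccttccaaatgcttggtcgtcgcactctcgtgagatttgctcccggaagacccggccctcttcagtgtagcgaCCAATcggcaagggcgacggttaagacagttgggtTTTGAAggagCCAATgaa
Rrm2: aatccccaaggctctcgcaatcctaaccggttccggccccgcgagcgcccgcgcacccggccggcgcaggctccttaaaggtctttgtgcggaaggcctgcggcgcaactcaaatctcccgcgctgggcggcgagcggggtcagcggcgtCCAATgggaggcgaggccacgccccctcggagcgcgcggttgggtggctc

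In Mcm5, and at the upstream site of Mcm6, E2F matches on opposite strands overlap and form 1 run of capitals. The same letters were sought from 250 bases before to 50 bases after the start of every gene, and 34 of the 38 members had such a window. An E2F octamer was present in 10 of the 34, or 29.4%, against 2.6% of 27025 genes. The CHR was present in 10, or 29.4%, against 20.23% of all genes, and CCAAT in 23, or 67.6%, against 41.06%. By role, 5 of 6 helicase and loader genes held an E2F octamer, 1 a CHR and 5 a CCAAT box. Of 9 mitotic genes, 1 held an E2F octamer, 7 a CHR and all 9 a CCAAT box. Rrm2 held a CCAAT box and neither of the other motifs in this window. Among members with a window, 16 read above lens and tendon on all cornea arrays. Of these, 6 held an E2F octamer, 6 a CHR and 12 a CCAAT box. Among the 15 other members on the array with a window, the counts were 4, 3 and 9. A match describes the letters and is not a bound site.

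Values are the deposited expression indices, in arbitrary units, and probe sets differ in brightness, so levels are compared between tissues and not between genes. Array medians ran from 67.6 to 87.99. The 3′ to 5′ signal ratio of Gapdh control probe sets, a sign of RNA integrity, was 2.25 on adult cornea array 1 against 0.831 to 1.04 on the other 8 arrays. The arrays carried markers of their tissues, and the cornea arrays held much epithelial RNA. For lens this rests on fibre markers, since the markers of lens epithelium summed lower in lens than in cornea. The corneal epithelial keratin Krt12 read 6614, 6685 and 8290.3 on the adult cornea arrays and 6439.9 and 7313 on the P10 arrays, the stromal proteoglycan gene Kera read 311, 183 and 144 and 441 and 345, the lens channel gene Mip read 1918 and 1799.6 on the lens arrays, and the tendon proteoglycan gene Fmod read 5455 and 6342 on the tendon arrays. Other tissue was present too: Krt12 read 1758 and 1603 in lens, the lens crystallin gene Cryaa read 1279.7, 2443 and 2078 in adult cornea, and the muscle actin gene Acta1 read 3449 and 4307 in tendon. In bulk RNA, fewer dividing cells and less of a transcript per dividing cell cannot be told apart.

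**Figure D1:**
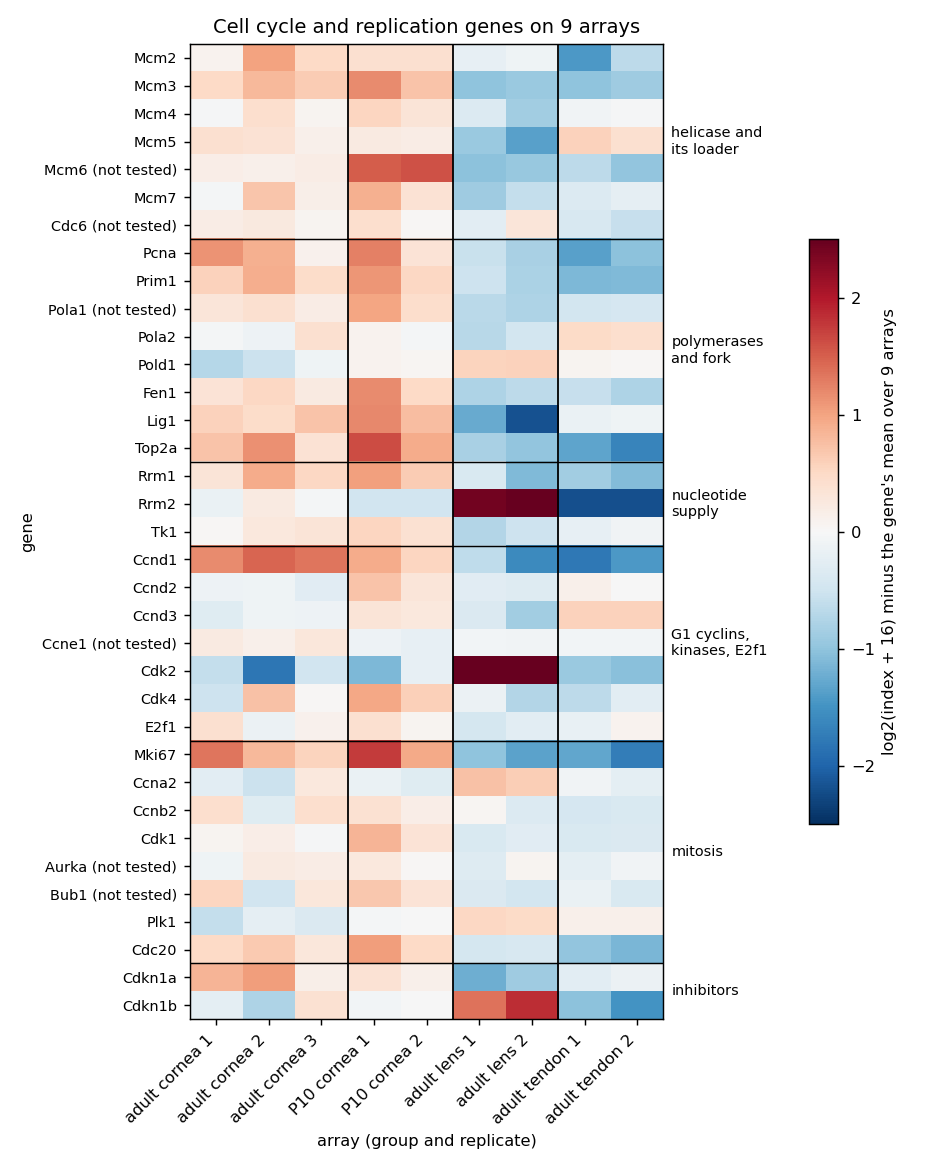
Heat map of the 35 genes (rows, grouped by role) on the 9 arrays (columns, grouped by tissue and age); colour gives log2(index + 16) minus the gene's mean over the 9 arrays, limited to the range of the bar. For 18 of the 35 genes every cornea column has a higher value than every lens and tendon column. Rrm2, Cdk2, Cdkn1b, Ccna2, Plk1 and Pold1 have their highest group mean in lens.

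The genes as a group read highest in the cornea. For 18 of the 35 genes, or 51.4%, all 5 cornea arrays lay above all 4 lens and tendon arrays, a pattern shown by 11.6% of all probe sets. These were Mcm2, Mcm3, Mcm4, Mcm6, Mcm7, Pcna, Prim1, Pola1, Fen1, Lig1, Top2a, Rrm1, Tk1, Ccnd1, Mki67, Cdk1, Cdc20 and Cdkn1a. With the probe sets used, the reverse held for Plk1 alone, or 2.86% of the genes against 6.02% of probe sets. Of the 35, 22 had their highest group mean in P10 cornea, 4 in adult cornea, 6 in lens and 3 in tendon, or 62.9%, 11.4%, 17.1% and 8.57%. Over all probe sets these shares were 26.6%, 16.6%, 30.9% and 26%. The median index of the 35 genes was 96.9, 141 and 111 on the adult cornea arrays, 167 and 128 on the P10 arrays, 73.9 and 63.99 in lens and 60.8 and 67.7 in tendon, so every cornea array exceeded every lens and tendon array. Within the P10 group, array 1 read above array 2 for 31 of the 35 genes and for 54.9% of all probe sets.

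Adult cornea was compared with adult lens and with adult tendon. The 2 comparisons share the adult cornea arrays, so their values are given side by side. With limma, a linear model with moderated variances fitted to all tested probe sets, 22 of the 29 tested genes differed from lens at a Benjamini-Hochberg adjusted p under 0.05, where 51.2% of all tested probe sets did. Higher in cornea were 16 (27.2% of all probe sets) and lower were 6 (24%). Against tendon 15 differed (35% of all probe sets), 13 higher (16.1%) and 2 lower (18.9%). Over all 35 genes, tested or not, the difference from lens was positive for 29 with a median of 0.69 on the log2(index + 16) scale, on which indices below 0 count as 0, where 52.8% of all probe sets were positive with a median of 0.05. The difference from tendon was positive for 28 with a median of 0.58, against 50.2% and a median of 0.00. The comparisons below are two-sided, errors of log2 differences are standard errors, and folds are on the same scale, which understates differences of dim genes.

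**Figure D2:**
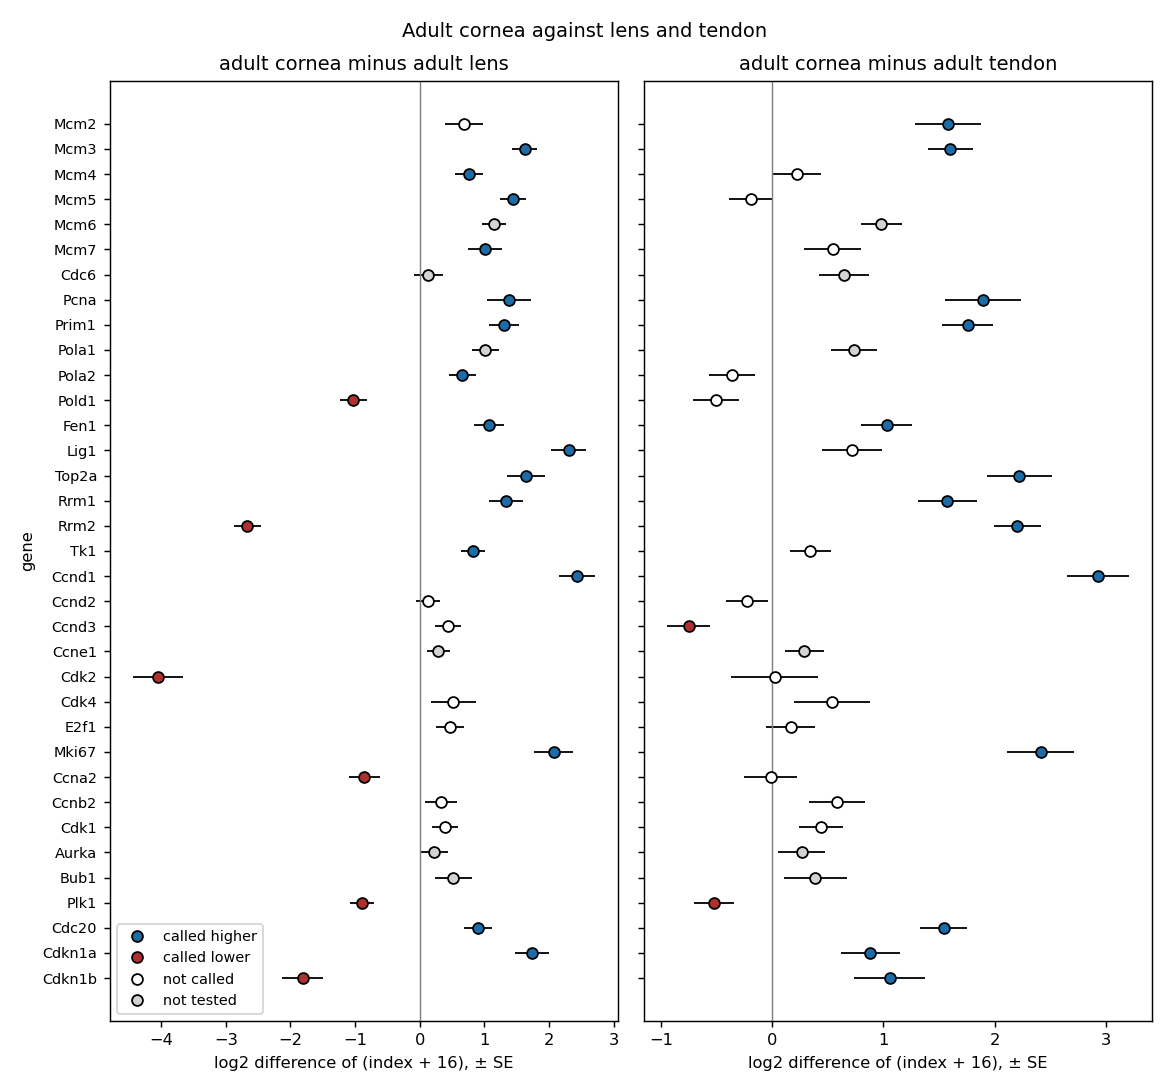
Log2 difference of (index + 16), with its SE, of adult cornea (3 arrays) minus adult lens (left, 2 arrays) and minus adult tendon (right, 2 arrays) for the 35 genes; colour shows the limma call at adjusted p under 0.05. Points lie to the right of 0 for 29 genes against lens and 28 against tendon, and Cdk2, Rrm2 and Cdkn1b lie far to the left against lens.

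The Mcm genes encode the 6 subunits of the replicative helicase, and Cdc6 helps to load it. Mcm3 read 163, 205 and 179 on the adult cornea arrays, 271 and 189 in P10 cornea, 46.5 and 50.0 in lens and 46.5 and 51.8 in tendon. All 5 cornea arrays lay far above all 4 lens and tendon arrays, and adult cornea was 3.08-fold above lens (log2 difference 1.62 ± 0.20, adjusted p = 9.66e-05) and 3.04-fold above tendon (1.60 ± 0.20, adjusted p = 0.000156). Mcm4 and Mcm7 were higher than in lens, by 0.76 (adjusted p = 0.0161) and 1.01 (adjusted p = 0.00818), and not called against tendon. Mcm2 was higher than in tendon (1.58 ± 0.30, adjusted p = 0.00219) and not called against lens (0.69 ± 0.30, adjusted p = 0.0783). Mcm2 read 79.2, 165 and 111 in adult cornea, 103 and 103 in P10 cornea, 62.0 and 67.3 in lens and 17.0 and 40.8 in tendon, an order of cornea, lens and tendon without overlap. With a pseudocount of 64 the differences became 0.50 (Mcm4) and 0.64 (Mcm7) from lens and 0.96 (Mcm2) from tendon, all still called.

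Mcm6, the helicase subunit that the filter left out, was near 0 in lens and tendon. It read 24.3, 23.2 and 24.7 in adult cornea, 85.7 and 91.7 in P10 cornea, 1.59 and 2.57 in lens and 6.72 and 2.15 in tendon, with no overlap between the cornea of either age and the other tissues. Without the filter, limma's adjusted p was 0.000585 against lens, where it called 40.8% of all probe sets, and 0.00245 against tendon, where it called 26.2%. Cdc6 read 33.8, 35.6 and 29.8 in adult cornea and 20.6 and 38.3 in lens, which overlap. It read 42.2 and 28.5 in P10 cornea and 17.3 and 13.3 in tendon, so every cornea array lay above both tendon arrays.

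Among the genes of the replication fork, Pcna, the sliding clamp, read 481, 412 and 230.4 in adult cornea, 537 and 276 in P10 cornea, 141 and 115 in lens and 73.8 and 97.0 in tendon. The 2 cornea groups spanned a similar wide range and lay above the rest, with adult cornea 2.61-fold above lens (adjusted p = 0.00711) and 3.72-fold above tendon (adjusted p = 0.00174). Prim1, the catalytic subunit of primase, read 105, 137 and 96.6 in adult cornea, 41.0 and 31.0 in lens and 21.7 and 21.8 in tendon. It was higher in adult cornea than in lens (1.30 ± 0.23, adjusted p = 0.00103) and than in tendon (1.76 ± 0.23, adjusted p = 0.00022). Fen1, the nuclease that trims Okazaki fragments, was 2.10-fold above lens (adjusted p = 0.00324) and 2.04-fold above tendon (adjusted p = 0.00609). With a pseudocount of 64 the log2 differences from lens and tendon were 0.82 and 1.04 for Prim1 and 0.62 and 0.60 for Fen1, all still called.

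Lig1, the ligase that joins those fragments, separated lens from both other tissues. It read 238, 216 and 261 in adult cornea, 372 and 272 in P10 cornea, 54.9 and 21.2 in lens and 134 and 142 in tendon. Tendon lay between cornea and lens, without overlap. Adult cornea was 4.94-fold above lens (2.30 ± 0.27, adjusted p = 6.78e-05), and its difference from tendon was not called (0.72 ± 0.27, adjusted p = 0.0643). A dimmer second Lig1 probe set, below the filter, read 45.7, 21.8 and 51.8 in adult cornea and 23.1 and 36.2 in P10 cornea. It read 19.4 and 17.9 in lens and 42.6 and 28.1 in tendon. Lens was lowest there too, while cornea and tendon overlapped. Pola1, the catalytic subunit of polymerase alpha, was not tested and read 52.0, 56.9 and 47.3 in adult cornea, 93.2 and 59.4 in P10 cornea, 18.9 and 16.5 in lens and 24.3 and 25.5 in tendon, with cornea apart from the other tissues.

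Pold1, the catalytic subunit of polymerase delta, went the other way. It read 31.7, 37.8 and 56.5 in adult cornea, 67.8 and 65.2 in P10 cornea, 99.2 and 101.1 in lens and 65.9 and 64.5 in tendon. Lens was highest on both arrays. Adult cornea was lower than lens (-1.02 ± 0.21, limma adjusted p = 0.00235), and the log2 difference was -0.64 at a pseudocount of 64. A second Pold1 probe set, below the filter, read 25.4, 8.70 and 51.1 in adult cornea and 15.5 and 18.4 in lens, which overlap. The lens excess was thus seen with 1 of the 2 probe sets. Pola2, the accessory subunit of polymerase alpha, was 1.58-fold above lens (adjusted p = 0.024) and not called against tendon, where the difference was -0.36 (adjusted p = 0.216).

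Top2a, the topoisomerase that untangles replicated chromosomes, read 66.5, 95.6 and 48.1 in adult cornea, 139 and 79.3 in P10 cornea, 12.7 and 9.28 in lens and 4.23 and -2.69 in tendon. Every cornea array lay above every lens and tendon array, and in tendon the index was at or around 0. The log2 difference of adult cornea from lens was 1.64 (SE 0.29, adjusted p = 0.00106) and from tendon 2.22 (SE 0.29, adjusted p = 0.000219). Both sizes depend on the pseudocount, and that from tendon stands for no fold. With pseudocounts of 1 and 64 the difference from lens was 2.53 and 0.82, and that from tendon 4.90 and 1.01.

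The genes of nucleotide supply did not move together. Rrm1, the large subunit of ribonucleotide reductase, which makes deoxynucleotides, read 145, 229 and 168 in adult cornea, 246 and 182 in P10 cornea, 81.9 and 43.9 in lens and 54.1 and 44.2 in tendon. Cornea was highest, with adult cornea 2.53-fold above lens (adjusted p = 0.00208) and 2.98-fold above tendon (adjusted p = 0.00117). A dimmer second Rrm1 probe set, below the filter, had means of 21.2 in adult cornea, 19.3 in P10 cornea, 27.2 in lens and 24.7 in tendon. All groups overlapped there. Rrm2, the small subunit of the same enzyme, read 49.3, 70.0 and 55.6 in adult cornea, 37.0 and 36.9 in P10 cornea, 374 and 546 in lens and -39.0 and -36.7 in tendon. Lens was far above cornea, and the tendon values were below 0. Adult cornea was 6.34-fold below lens (-2.67 ± 0.21, adjusted p = 5.43e-06). Its call against tendon (adjusted p = 2.64e-05) rests on values below 0, so no fold is given, and the log2 difference of 2.21 became 5.87 and 0.93 with pseudocounts of 1 and 64.

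Tk1, the salvage kinase for thymidine, read 189.9, 224 and 234 in adult cornea, 277 and 246 in P10 cornea, 105 and 125 in lens and 159 and 174 in tendon. It was higher in adult cornea than in lens (0.83 ± 0.18, adjusted p = 0.00399) and not called against tendon (0.34 ± 0.18, adjusted p = 0.186).

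Cyclins D1 to D3 and Cdk4 drive the G1 phase, and Cdk2 with cyclin E starts S phase. Ccnd1 differed from both tissues. It read 855, 1045 and 959 in adult cornea, 721 and 544 in P10 cornea, 232 and 112 in lens and 96.2 and 127 in tendon. The cornea arrays stood clear of all others, and adult cornea was 5.42-fold above lens (2.44 ± 0.28, adjusted p = 5.95e-05) and 7.62-fold above tendon (2.93 ± 0.28, adjusted p = 2.35e-05). A second Ccnd1 probe set gave 2.84-fold and 2.30-fold, both called.

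The other D cyclins did not follow. Ccnd3 read 103, 120.2 and 117 in adult cornea, 167 and 159 in P10 cornea, 97.3 and 63.99 in lens and 202 and 201 in tendon. Tendon was highest, and adult cornea was lower than tendon (-0.75 ± 0.20, adjusted p = 0.0134). Ccnd2 was called against neither tissue, with differences of 0.13 and -0.23. Cdk4 and E2f1 were not called either: the adjusted p of Cdk4 was 0.229 and 0.262, and that of E2f1 was 0.101 and 0.607. Ccne1, which was not tested, read 56.5, 52.4 and 60.2 in adult cornea and 41.2 and 37.7 in P10 cornea. It read 43.8 and 42.6 in lens and 43.2 and 43.1 in tendon, so adult cornea lay above all other arrays.

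Cdk2 gave the largest difference of all members between adult cornea and lens. Its brighter probe set read 72.7, 22.1 and 79.1 in adult cornea, 44.9 and 99.5 in P10 cornea, 1111 and 1128 in lens and 54.4 and 48.7 in tendon. Both lens arrays stood far above the other 7, and adult cornea was lower by 4.05 on the log2 scale (SE 0.39, adjusted p = 1.75e-05). A second probe set of the gene read 171, 116 and 182 in adult cornea, 202 and 215 in P10 cornea, 215 and 151 in lens and 162 and 169 in tendon. The tissues overlapped there, so the lens excess was seen with 1 of the 2 probe sets, and the mean of both gave a log2 difference of -2.13 from lens (adjusted p = 0.000213).

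Mki67 encodes Ki-67, the coat protein of mitotic chromosomes used to mark cycling cells. It read 223, 149 and 123 in adult cornea, 300.03 and 166 in P10 cornea, 30.9 and 21.5 in lens and 22.4 and 12.4 in tendon. The lowest cornea array was still above every lens and tendon array. Adult cornea was 4.20-fold above lens (2.07 ± 0.30, adjusted p = 0.000295) and 5.33-fold above tendon (2.41 ± 0.30, adjusted p = 0.000158). A second probe set gave 3.10-fold (adjusted p = 0.00185) and 3.71-fold (adjusted p = 0.00113). With a pseudocount of 64 the log2 differences of the brighter probe set were 1.32 and 1.47.

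**Figure D3:**
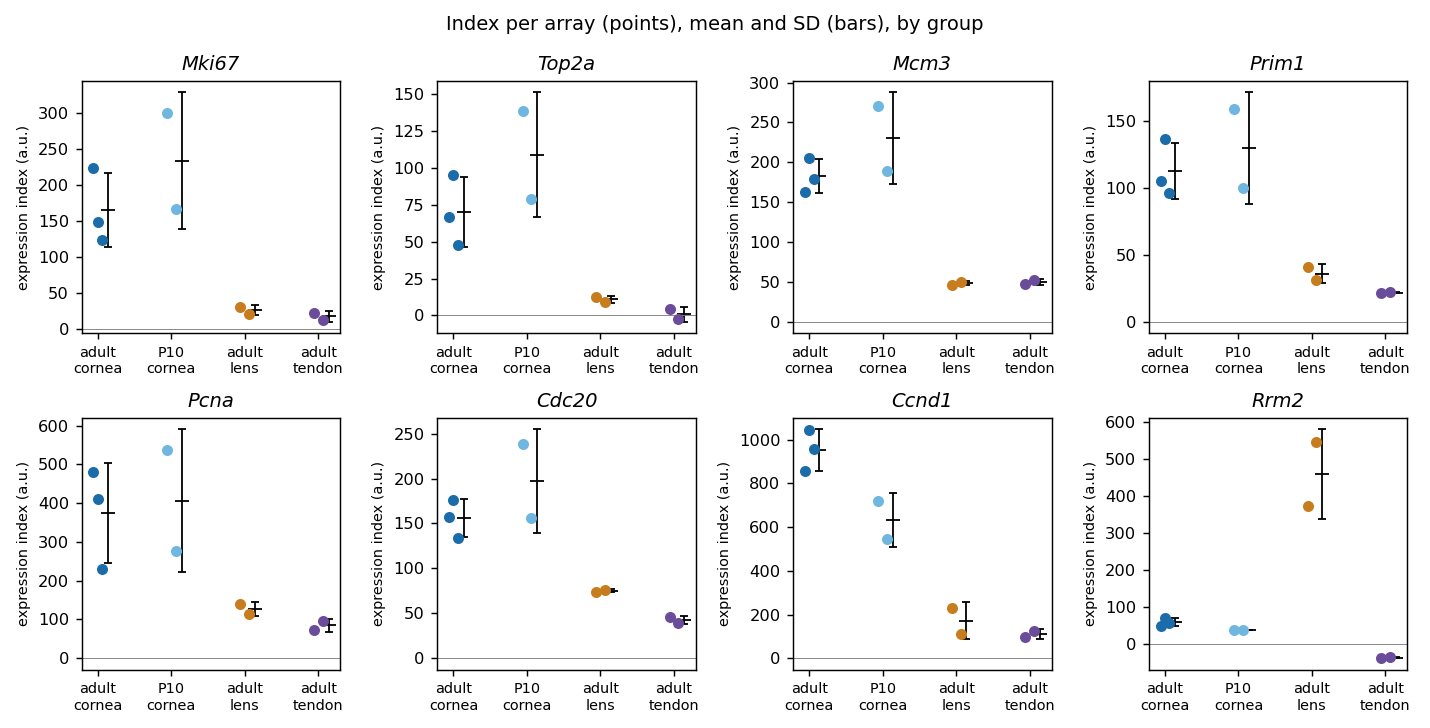
Expression index (arbitrary units, linear axes) of 8 genes on each of the 9 arrays, with points for arrays and bars for the group mean and SD (3 adult cornea arrays, 2 arrays in each other group). For Mki67, Top2a, Mcm3, Prim1, Pcna, Cdc20 and Ccnd1 every cornea point lies above every lens and tendon point, while Rrm2 is highest in lens and below 0 in tendon.

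Cdc20, which activates the anaphase-promoting complex, read 157, 176 and 134 in adult cornea, 238 and 156 in P10 cornea, 73.9 and 76.5 in lens and 46.1 and 39.6 in tendon. The order was cornea, lens, tendon without overlap, and adult cornea was 1.87-fold above lens (adjusted p = 0.0053) and 2.91-fold above tendon (adjusted p = 0.000304). Cdk1, the mitotic kinase, read 140.4, 151 and 129 in adult cornea, 252 and 171 in P10 cornea, 98.4 and 107 in lens and 98.1 and 99.5 in tendon. The cornea arrays lay above the rest, but the differences of adult cornea, 0.39 and 0.44, were not called (adjusted p = 0.123 and 0.115). Ccnb2, a B-type cyclin, was not called against either tissue (adjusted p = 0.303 and 0.104).

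With the probe sets used, Ccna2 and Plk1 were higher in lens. Ccna2, the cyclin of S and G2 phase, read 199, 161 and 293 in adult cornea, 214 and 192 in P10 cornea, 412 and 381 in lens and 227 and 201 in tendon. Lens lay above all other arrays, with adult cornea lower by 0.86 (SE 0.24, adjusted p = 0.013). Plk1, a kinase of mitotic entry, read 48.7, 68.1 and 60.1 in adult cornea, 78.7 and 81.0 in P10 cornea, 124 and 121 in lens and 90.8 and 90.9 in tendon. Adult cornea was lower than lens (-0.89 ± 0.18, adjusted p = 0.00218) and than tendon (-0.52 ± 0.18, adjusted p = 0.0466). Aurka, a spindle kinase, and Bub1, a checkpoint kinase, were not tested, and with the probe sets used they overlapped between adult cornea and lens. Aurka read 43.2, 58.5 and 57.2 in adult cornea and 35.3 and 51.3 in lens. The 2 other probe sets of Bub1, also below the filter, were opposed: 1 read 58.7, 71.1 and 76.9 in adult cornea and 0.381 and -15.7 in lens, and the other 13.2, 1.29 and 10.7 and 32.7 and 32.0.

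The 2 inhibitors in the list bind cyclin-dependent kinases and restrain the cycle. Cdkn1a (p21) read 289, 332 and 172 in adult cornea, 203 and 169 in P10 cornea, 56.7 and 75.2 in lens and 125 and 138 in tendon. It was highest in cornea, 3.33-fold above lens (adjusted p = 0.000399) and 1.84-fold above tendon (adjusted p = 0.0261). Cdkn1b (p27), known to accumulate as lens fibres leave the cycle, read 399, 272 and 624 in adult cornea, 454 and 472 in P10 cornea, 1235 and 1750.5 in lens and 225 and 157 in tendon. Lens was highest and tendon lowest. Adult cornea was 3.50-fold below lens (-1.81 ± 0.32, limma adjusted p = 0.000965) and 2.08-fold above tendon (1.06 ± 0.32, adjusted p = 0.0261). A dimmer second probe set, below the filter, read 57.2, 29.6 and 51.4 in adult cornea and 59.4 and 58.3 in P10 cornea. It read 28.9 and 8.03 in lens and 28.2 and 18.1 in tendon, with lens below cornea. The lens excess of Cdkn1b was thus seen with 1 of its 2 probe sets.

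Of the calls against lens, 5 depended on a lens array. Without lens replicate 2 the adjusted p became 0.15 for Mcm4, 0.0657 for Pcna and 0.0507 for Ccna2, and without lens replicate 1 it became 0.0666 for Mcm7, 0.12 for Pola2 and 0.0669 for Ccna2. Of the calls against tendon, Fen1 was lost without tendon replicate 2 (adjusted p = 0.0651), Ccnd3 without either tendon array (0.0953 and 0.0888), and Cdkn1a, Cdkn1b and Plk1 without either tendon array (0.0567 to 0.205) or without adult cornea replicate 1 (0.0775, 0.0596 and 0.131). Cdkn1a was also lost without adult cornea replicate 2 (0.0597), and Plk1 without adult cornea replicate 3 or any lens or P10 array (0.0514 to 0.0826). The other 17 calls against lens and 10 against tendon held whichever 1 of the 9 arrays was left out. Leaving out adult cornea replicate 1, where the Gapdh ratio was high, gave 23 calls against lens and 12 against tendon.

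P10 cornea differed from lens and tendon in both age and tissue. Of the 29 tested genes, 24 differed from lens (51% of all tested probe sets), 19 higher in P10 cornea (31.6%) and 5 lower (19.4%). Against tendon 16 differed (26.7%), all 16 higher (15.7%) and none lower (11%). Over all 35 genes the median log2 difference was 1.04 against lens and 0.90 against tendon, where the medians over all probe sets were 0.17 and 0.11. Lig1 was 6.51-fold above lens (adjusted p = 5.39e-05), Mki67 5.72-fold above lens and 7.25-fold above tendon, and Mcm3 3.78-fold and 3.73-fold. For Mcm6, which the filter left out, the log2 difference was 2.53 from lens and 2.37 from tendon, both called without the filter, where 40.2% and 19.6% of all probe sets were. Cdk1 (1.89-fold above lens and 1.95-fold above tendon) and Cdk4 (2.32-fold and 2.35-fold) were called here, and Ccnd2 was 1.75-fold above lens.

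Those called lower than in lens were Rrm2, Cdk2, Ccna2, Plk1 and Cdkn1b. Without P10 replicate 1, which read above replicate 2 for most of the genes, 17 genes were called against lens and 10 against tendon, and Pcna, Mcm4, Ccnd2, Cdk1, Cdk4, Ccna2 and Plk1 were lost against lens (limma, adjusted p = 0.0829, 0.0501, 0.0959, 0.0762, 0.125, 0.0548 and 0.176). Against tendon 10 were called without tendon replicate 1 and 11 without tendon replicate 2. Mcm7, Lig1, Cdk1, Cdk4 and Cdkn1b were lost without either tendon array or without P10 replicate 1. Lost too were Mcm7, Cdk4 and Cdkn1b without P10 replicate 2 (0.0502, 0.0801 and 0.111), Mcm7 without either lens array (0.0526 and 0.0525), and Mcm2 without tendon replicate 1 (adjusted p = 0.0947) or P10 replicate 1 (0.0527). Without lens replicate 2 the calls of Pcna, Mcm4 and Cdk4 against lens were lost as well (0.0628, 0.0504 and 0.161). Ccna2 was lost against lens without any 1 of the P10 and lens arrays (0.0519 to 0.0863), and Plk1 without any 1 of the P10, lens and tendon arrays (0.0783 to 0.176).

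Adult cornea was compared with P10 cornea to ask how the transcripts change as the cornea matures. None of the 29 tested genes passed with limma, in either direction, where 4.57% of all tested probe sets did (0.699% higher in adult and 3.88% lower). At an unadjusted p under 0.05 there were 4, Ccnd2, Pold1, Cdk1 and Ccnd3, and by the methods' t-test, which also required a 2-fold difference of at least 100 units, there were 0. Over all 35 genes, 27 were lower in adult cornea with a median log2 difference of -0.28, but 66.2% of all probe sets were lower as well, with a median of -0.11. The difference of the 2 medians was -0.16. That background moved with scaling: over the tested probe sets it was -0.13 as deposited, and 0.03 and 0.04 after quantile normalization and median centring.

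The gene with the largest change was Mcm6. Its 24.3, 23.2 and 24.7 on the adult arrays against 85.7 and 91.7 on the P10 arrays did not overlap, and the log2 difference was -1.38 ± 0.18, adjusted p = 0.00291 with limma over all probe sets without the filter, a fall of 2.61-fold on the shifted scale. It was the 1 gene of the 35 called by age in that fit, where 3.41% of all probe sets were called. The other Mcm genes lay between -0.36 (Mcm7) and 0.12 (Mcm2) on the log2 scale. Among the tested genes, Ccnd2 had the smallest p, with 90.8, 92.0 and 79.7 in adult and 174 and 128 in P10 cornea, without overlap, and -0.68 ± 0.19, adjusted p = 0.0805. Mki67 (-0.44 ± 0.30, adjusted p = 0.564), Top2a (-0.53 ± 0.29, adjusted p = 0.436) and Cdk1 (-0.52 ± 0.20, adjusted p = 0.215) were below P10 on average and were not called.

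Some means were higher in the adult, also without a call. Ccnd1 differed by 0.59 ± 0.28, adjusted p = 0.357 and its second probe set by 0.03 ± 0.20, adjusted p = 0.98. Rrm2 differed by 0.48 ± 0.21, adjusted p = 0.318 and Cdkn1a by 0.43 ± 0.27, adjusted p = 0.503. The P10 arrays themselves were far apart for many genes: Top2a read 139 and 79.3, Mki67 300.03 and 166 and Pcna 537 and 276, and the lower P10 value lay within or near the adult range in each case. A gene that missed the threshold is not shown to be equal at the 2 ages.

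**Figure D4:**
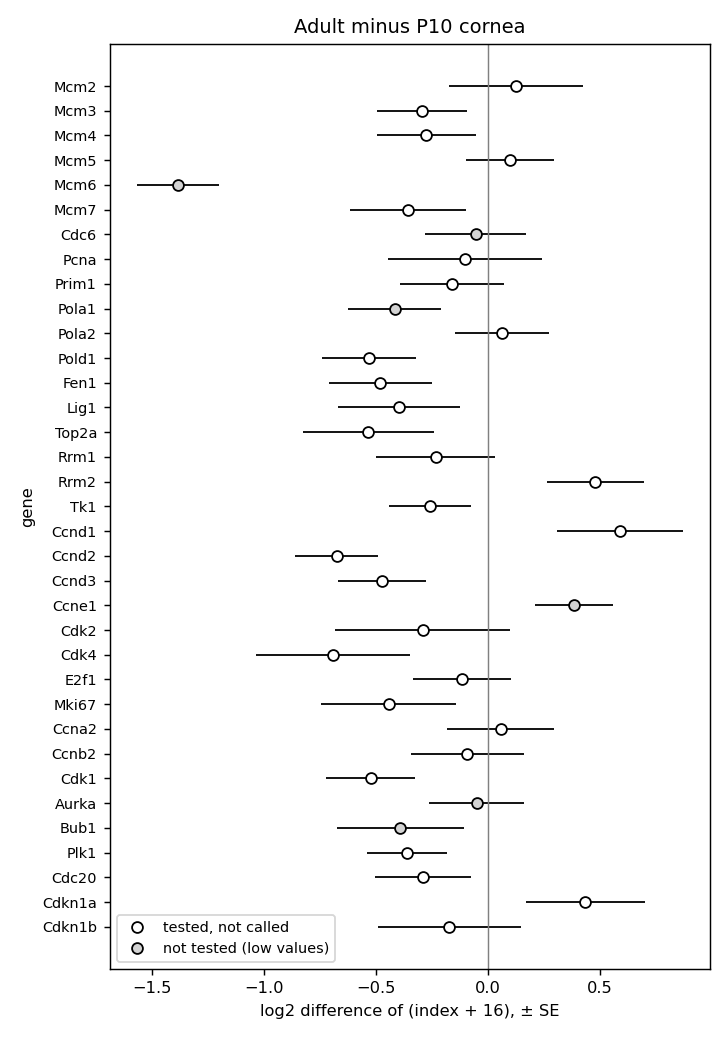
Log2 difference of (index + 16), with its SE, of adult cornea (3 arrays) minus P10 cornea (2 arrays) for the 35 genes, with grey points for genes the filter left out. Most points lie left of 0 (27 of 35), and only Mcm6, at -1.38, lies beyond -1.

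Lens and tendon were compared with each other. Of the tested genes 11 differed (49% of all tested probe sets), 6 higher in lens (22.6%) and 5 lower (26.4%), and over all 35 genes the median difference was 0.04 against -0.05 for all probe sets. Higher in lens were Rrm2, Cdk2, Cdkn1b, Ccna2, Mcm2 and Cdc20. Lower were Mcm5, Lig1, Ccnd3, Pola2 and Cdkn1a. Of those lower, Mcm5 and Cdkn1a depended on the probe set. For Mcm5 the second one gave -0.11 ± 0.33, limma adjusted p = 0.808, and the mean over probe sets -0.88 (adjusted p = 0.0129). For Cdkn1a these were 0.57 ± 0.23, adjusted p = 0.0588, and -0.14 (adjusted p = 0.594). Of those higher, Cdk2 and Cdkn1b depended on it too. The second Cdk2 probe set gave 0.11 ± 0.25, limma adjusted p = 0.743, and the mean over probe sets lowered the difference from 4.07 to 2.09. With the probe set used, Cdkn1b was 7.28-fold higher in lens (2.86 ± 0.35, limma adjusted p = 8.00e-05). Its second probe set, which was not tested, gave -0.24 ± 0.33, with lens and tendon overlapping. Lig1 was 3.00-fold lower (-1.58 ± 0.30, adjusted p = 0.00144). The calls of Mcm2, Ccna2, Cdc20 and Cdkn1a were lost in at least 2 of the fits that left out a lens or tendon array, and without tendon replicate 1 there were 7 calls.

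Where a gene had several probe sets, they did not always tell the same story. The brighter Mcm5 probe set read 489, 473 and 401 in adult cornea, 427 and 417 in P10 cornea, 184 and 133 in lens and 553 and 490.1 in tendon, so that adult cornea was 2.72-fold above lens (adjusted p = 0.000187) and not called against tendon (-0.19 ± 0.20, adjusted p = 0.484). A second one read 161, 322 and 167, 403 and 255, 45.4 and 45.6 and 58.6 and 43.4 in the same order of tissues. There adult cornea was 3.61-fold above lens (adjusted p = 0.000653) and 3.33-fold above tendon (adjusted p = 0.00147), the pattern of Mcm3.

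For Tk1 the second probe set reversed the order, with 19.9, 54.0 and 32.5 in adult cornea and 132 and 181 in lens (-1.79 ± 0.32, adjusted p = 0.00101), and the mean of both gave a difference of -0.48 from lens (adjusted p = 0.0992). For Cdkn1a the second probe set read 114, 157 and 175 in adult cornea and 200.1 and 224 in lens, with lens above, and the mean of both was 0.63 (adjusted p = 0.0166). For E2f1 the second probe set was higher in lens, 86.9 and 96.7 against 37.6, 35.6 and 29.0 in adult cornea (-1.11 ± 0.20, adjusted p = 0.00106). For Plk1 another probe set read 384 and 165 in lens and 27.8, -69.1 and 47.5 in adult cornea, and the mean over its tested probe sets gave a difference of -1.91 from lens (adjusted p = 0.000586) and turned that from tendon to 0.0196 (adjusted p = 0.968). A second Cdk4 probe set read -1580.4 and -2387 in lens, far below 0, and is not interpreted.

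**Figure D5:**
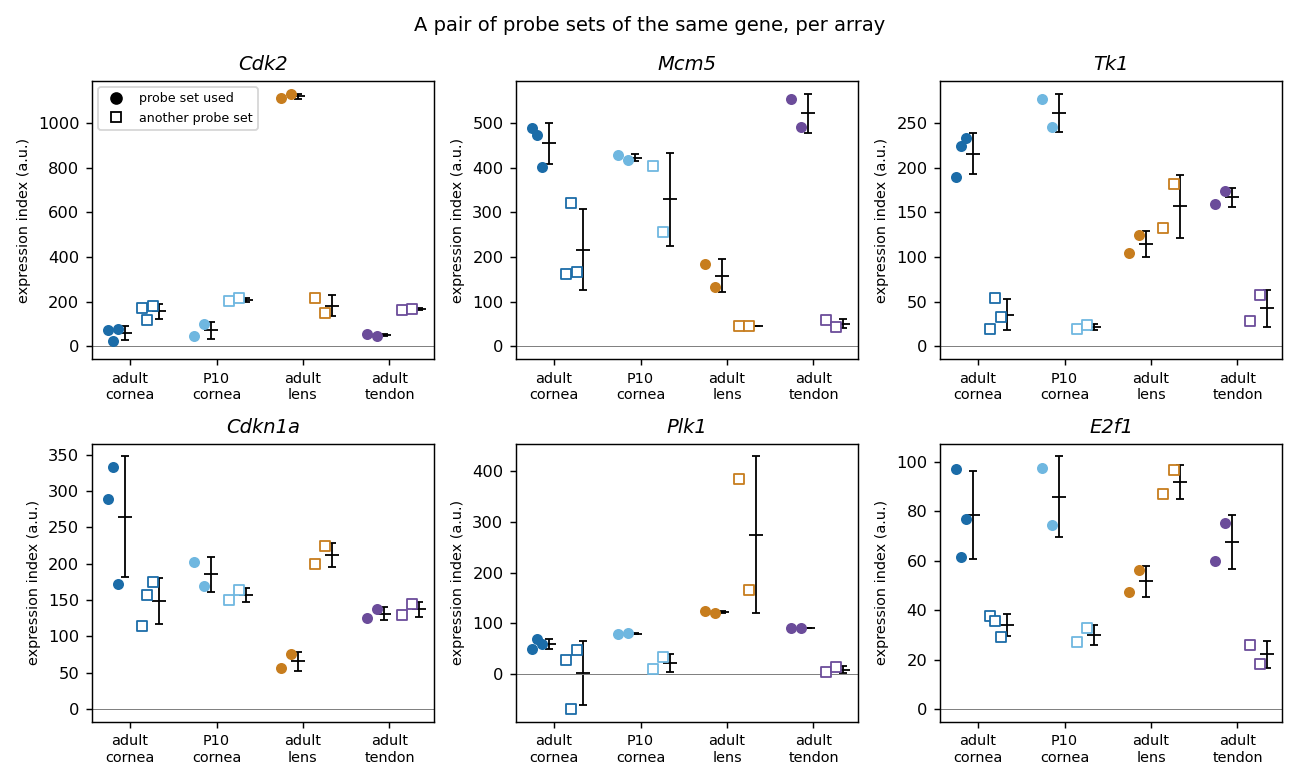
Expression index (arbitrary units, linear axes) on each of the 9 arrays for 6 genes, with filled circles for the probe set used and open squares for another probe set of the gene, and bars for the group mean and SD (n = 3 or 2). The 2 probe sets order lens and adult cornea differently for Tk1, Cdkn1a and E2f1, for Cdk2 the second one shows overlapping tissues, and for Mcm5 they differ in tendon.

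A wider list of 122 further cell cycle genes was counted in the same way, and 99 had a probe set of their own and 65 were tested. Against lens 25 were higher in adult cornea and 14 lower, where 27.2% and 24% of all tested probe sets were, and against tendon 20 were higher and 6 lower, where 16.1% and 18.9% were. For P10 cornea the counts were 31 and 12 against lens (31.6% and 19.4% of all tested probe sets) and 24 and 3 against tendon (15.7% and 11%). Over the 99 genes the median log2 difference of adult cornea was 0.44 from lens and 0.39 from tendon. All 5 cornea arrays lay above all lens and tendon arrays for 33 of the 99, or 33.3%, against 11.6% of all probe sets. Among them, chosen for their known roles after the values were seen, were the chromosomal passenger genes Aurkb and Birc5, the cytokinesis genes Anln, Ect2, Kif23 and Racgap1, and Uhrf1 and Dnmt1, which copy DNA methylation at the fork.

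Cks2, a small subunit of the cyclin-dependent kinases, read 115, 92.0 and 57.6 in adult cornea, 174 and 79.4 in P10 cornea, -4.76 and -10.2 in lens and -0.105 and -0.0848 in tendon. Hmgb2, a chromatin protein of dividing cells, read 171, 189 and 137 in adult cornea, 419.7 and 279 in P10 cornea, 12.4 and -5.94 in lens and 12.9 and 1.98 in tendon. Both were present in cornea and near or below 0 elsewhere, and both were called against lens and tendon. Adult cornea was lower than lens for Gadd45a, a gene of growth arrest and DNA damage (mean 64.7 ± 30.3 against 582 ± 251, SD) and for the inhibitor Cdkn1c (p57), as well as for the origin subunit Orc5 (81.1 ± 29.1 against 719.5 ± 79.3), with n = 3 and 2.

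By age, 2 of the 65 tested genes changed, where 4.57% of all tested probe sets did, and these were lower in the adult (3.88% of all probe sets): the inhibitor Cdkn1c and the activator Cdc25a. Cdkn1c read 34.9, 58.7 and 34.3 in adult cornea, 382 and 378 in P10 cornea, 1365 and 906 in lens and 202 and 240.2 in tendon. Adult cornea was the lowest tissue, 6.87-fold below P10 cornea (-2.78 ± 0.25, adjusted p = 0.000306). Cdc25a, the phosphatase that activates Cdk2, read 53.5, 76.1 and 48.3 in adult cornea, 783 and 357 in P10 cornea, 2.43 and -13.6 in lens and 1785 and 1840.4 in tendon. Tendon was highest and lens near 0, and adult cornea was 7.34-fold below P10 cornea (-2.88 ± 0.30, adjusted p = 0.000737).

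Markers of other cell types moved with these differences. The summed index, with values below 0 taken as 0, of 15 corneal epithelial markers was 20139 to 21817 on the adult cornea arrays and 21897 to 22107 on the P10 arrays, against 2444 to 2867 in lens and 1270 to 2243 in tendon. Of these markers 11 were called higher in adult cornea than in lens and 11 higher than in tendon, out of 14 tested, and 2 were called lower than in tendon. Of the defining ones, Itgb4 and Sfn were below 0 on both lens arrays, and Krt16 was around or below 0 in adult cornea, lens and tendon. The 6 limbal and basal epithelial markers summed to 2113 to 3111 in adult cornea, 5660 to 5672 in P10 cornea, 538 to 576 in lens and 420 to 514 in tendon, so they differed between the ages without overlap, and Krt19 was called lower in the adult. The 7 stromal markers summed to 6420 to 7404 in adult cornea and 14620 to 15066 in P10 cornea. In lens they summed to 1555 to 2644 and in tendon to 17006 to 18736, so the sum was highest in tendon. By age, 4 of the 7, Lum, Ogn, Col1a1 and Col5a1, were called lower in the adult cornea. The part of epithelial or stromal cells in the cell cycle differences was not tested.

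In tendon, 11 skeletal muscle markers summed to 44574 to 52930 against at most 1139 on any other array, and 12 leukocyte markers to 4587 to 4919 against 832 to 2015 elsewhere. In lens, 8 fibre markers summed to 34410 to 35679, against 4722 to 8576 in cornea of both ages and 532 to 585 in tendon. The 6 lens epithelial markers summed to 1292 to 2086 in lens and 1911 to 1925 in tendon, lower than in cornea. There they summed to 2745 to 3894 in the adult and 3321 to 3972 at P10. Of the 6, 4 were called higher in adult cornea than in lens and 2 lower. The 9 markers listed for bone marrow precursors summed to 3891 to 3933 in tendon against 1252 to 2183 elsewhere, but they did not move together. Of 7 tested, 3 were called higher in lens than in tendon and 3 lower. For adult cornea against tendon the counts were 2 and 2, and for P10 cornea 0 and 1. The part of muscle, blood or fibre RNA in the comparisons with tendon and lens was not tested.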

How the data were processed

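Biotin-labelled RNA of 9 preparations was hybridised to Affymetrix arrays. The deposited values are intensity-based expression indices on a linear scale, and per the series' design text the authors first ran Microarray Suite 5.0 and then computed normalised, model-based indices in dChip. The submitters' processing notes name MAS5, so the program behind the deposited numbers, like a genome build, is not stated in the sources used here. Some indices are below 0. Of 12488 probe sets, 66 controls were dropped. Gene symbols come from the platform annotation, in which 10833 probe sets carry 1 symbol, 396 several and 1193 none.

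Values were analysed as log2 of the index plus 16, with negative indices raised to 0 first and no further normalization. The filter left 8154 probe sets. A group-means model over all 9 arrays was fitted with limma 3.58.1 (R 4.3.3; trended variances; 5 residual and 4.933 prior degrees of freedom), with two-sided p-values adjusted by Benjamini-Hochberg within each of 6 comparisons and called below 0.05. Precision is limited by the small number of arrays. The fit was tested on simulated data. The alternatives covered the filter, pseudocount, scaling, probe set rule, the study's t-test, groups fitted, replicate block and leaving out each array. All members could be named; further cell cycle genes were named if among the 3 highest or 3 lowest differences called in a comparison, and other exceptions are stated. The members and lists were chosen with earlier results of these data known. Promoter windows are RefSeq's on GRCm38.p6 and were used for letters only.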

Additional observations from a re-analysis of the deposited data

How the results depend on the processing

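The counts of genes called, 22 for adult cornea against lens, 15 against tendon, 0 by age, 11 for lens against tendon, 24 for P10 cornea against lens and 16 against tendon, stayed within 1.5 times under other scalings, pseudocounts, the filter on the mean over all arrays, the mean over probe sets and fits of only the groups compared. By the methods' t-test at its thresholds the counts in this order were 8, 5, 0, 3, 3 and 0, and after Benjamini-Hochberg they were 1, 0, 0, 0, 0 and 0. Without the filter, 1 gene was called by age. Leaving out each array in turn gave 19 to 24, 10 to 16, 0 to 0, 7 to 12, 17 to 26 and 10 to 18. With the mean over probe sets the log2 difference of Tk1 turned to -0.48 (adult cornea against lens) and -0.55 (P10 cornea against lens), and that of Plk1 to 0.0196 (adult cornea against tendon). For these the cause lies in probe sets of the gene that disagree, and for the other changes the cause was not tested. Of 88 calls, 61 held with every array left out in turn, and 58 under every alternative fitted with limma in which the gene was tested. The stricter filter tested fewer genes, and the methods' t-test is not among these. Mcm7 in P10 cornea against tendon and Plk1 in adult cornea against tendon were lost under each of the 3 other scalings. Under median centring, Cdk4 in P10 cornea against tendon and Cdkn1a in lens against tendon were lost too (limma adjusted p = 0.0519 and 0.0522).

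Same-numbered arrays did not deviate together in every comparison (correlations of deviations from -0.363 to 0.201). Only 2 numbers are shared, and deviations of 2 arrays from their mean mirror each other. This check therefore cannot decide whether the numbers pair the arrays, and the main fit took the arrays as unpaired. With the replicate block the counts were 21, 14, 0, 11, 24 and 16. With lens numbers crossed, an alternative chosen after the data were seen, lens against tendon gave 11. With so few arrays, dim genes near or below 0 have the least certain differences.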
